A study of Mus musculus with 18 samples.

Results

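The genes described here serve antigen presentation by MHC class II and the co-stimulation of T cells. They were chosen by name as 10 rows of a table of 18668 genes: the class II chains H2-Aa, H2-Ab1 and H2-Eb1, the invariant chain Cd74, the peptide exchange factor chains H2-DMa and H2-DMb1, the class II transactivator Ciita, and the co-stimulatory genes Cd80, Cd86 and Cd40. All 10 were in the table and all 10 passed the filter on low values.

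RNA abundance was measured in bone marrow-derived macrophages (BMDM), which are grown from marrow cells with M-CSF, from mice of the C57BL6 background. Apoe-/- mice lack apolipoprotein E, and Apoe-/-/Treml4-/- double-knockout mice (DKO) lack the receptor Treml4 as well, so that no group had working Apoe. Cells of each genotype stayed untreated or received oxLDL, that is, LDL altered by oxidation, at 10 µg/ml (oxLDL 10, the low dose) or 60 µg/ml (oxLDL 60, the high dose), with 3 libraries in each of the 6 groups. The exposure was 16 h by the series text and 24 h by the study's methods, a treatment label also mentions LPS, and neither point was resolved. The age of the marrow donors is not given in the sources used here.

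Class II molecules carry peptides from ingested proteins to the cell surface, where CD4+ T cells read them. Each is a pair of an alpha and a beta chain that is assembled on the invariant chain, and H2-DM then exchanges the invariant chain fragment for peptide. Transcription of these genes is governed by Ciita, a co-activator that is itself induced by interferon-gamma and that is recruited by factors bound to the X and Y boxes of class II promoters. CD80 and CD86 bind CD28 on T cells, and CD40 receives the CD40 ligand of activated T cells and signals through NF-kB.

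Class II promoters are shown first because their X and Y boxes are the elements through which Ciita is known to act. RefSeq promoters (build GRCm38.p6) were held for 5 of the 10 genes: H2-Aa, H2-Eb1, H2-DMa, H2-DMb1 and Cd80. The stretches printed reach from 130 bases before the start of transcription to 20 bases after it, read 5′ to 3′ along the gene's strand, at chr17:34287804-34287953 (minus strand) for H2-Aa, chr17:34305737-34305886 (plus strand) for H2-Eb1 and chr17:34153061-34153210 (plus strand) for H2-DMb1. Capitals mark a Y box core (TGATTGG), an X box core (AG, any 2 bases, AC, any 2 bases and ATG) or a cAMP response element (TGACGTCA), each searched on both strands and none overlapping another in these stretches.
H2-Aa: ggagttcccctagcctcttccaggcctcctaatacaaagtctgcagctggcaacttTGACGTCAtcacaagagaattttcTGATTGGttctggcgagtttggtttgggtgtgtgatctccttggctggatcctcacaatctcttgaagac
H2-Eb1: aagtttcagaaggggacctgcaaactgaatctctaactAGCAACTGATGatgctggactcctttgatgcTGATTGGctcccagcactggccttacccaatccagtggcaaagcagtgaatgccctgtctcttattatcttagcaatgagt
H2-DMb1: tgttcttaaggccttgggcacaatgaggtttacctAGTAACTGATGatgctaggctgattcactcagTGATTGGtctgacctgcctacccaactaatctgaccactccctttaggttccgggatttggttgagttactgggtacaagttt

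All 3 stretches hold the Y box core, at 50 bases before the start in H2-Aa, 61 in H2-Eb1 and 63 in H2-DMb1. H2-Eb1 and H2-DMb1 also hold the X box core, at 92 and 95 bases before the start, and H2-Aa holds the cAMP response element at 74. The promoters of H2-DMa and Cd80 hold none of the 3 motifs. The patterns are exact, so a promoter without a match, such as H2-Aa for the X box core, may still hold a variant of the element. Among 32851 RefSeq promoters of 300 bases, 7.82% hold the Y box core, 3.09% the X box core, 0.228% both, and 1.79% the cAMP response element. The letters searched were chosen after these stretches had been read, so the matches are a description and not a test.

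The 3 chains and both H2-DM genes lie together on chromosome 17 of mm10 (GENCODE M21 annotation): H2-DMa at chr17:34119541-34139101, H2-DMb1 at chr17:34153072-34160230, H2-Ab1 at chr17:34257689-34269419, H2-Aa at chr17:34282744-34287823 and H2-Eb1 at chr17:34305867-34316674. Ciita (chr16:10480059-10528418), Cd86 (chr16:36603869-36666081) and Cd80 (chr16:38455561-38496335) lie on chromosome 16, Cd74 on chromosome 18 (chr18:60803848-60812652) and Cd40 on chromosome 2 (chr2:165055627-165072948).

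The libraries held between 39.7 and 54.2 M reads, as read from the steps that 1 read makes in the table, and 3 reads over 1 kb of transcript correspond to 0.0553 to 0.0755 RPKM (reads scaled to gene length and library size). Treml4 averaged 2.65 ± 0.81 RPKM (SD, n = 3) in untreated Apoe-/- cells and 0.004 ± 0.007 RPKM in untreated DKO cells. Replicate numbers mark the same animal within a genotype, and Xist stood at 7.25 to 14.5 RPKM in the 6 libraries of Apoe-/- replicate 2 and DKO replicate 3 (the Xist-positive libraries) and at 0.00113 to 0.069 RPKM in the other 12. Of the cell types checked, all 8 macrophage markers were expressed, with a summed level of 5491 to 11730 RPKM. Most of that sum was Lyz2, at 3970 to 9911 RPKM, while Mertk stood at 2.20 to 6.71 RPKM. At oxLDL 60, 3 of the 8 were called lower in Apoe-/- (Adgre1, Fcgr1 and Lyz2) and 2 in DKO (Fcgr1 and Lyz2), and Mertk was called higher in each, with calls as defined for the first comparison. Of all genes, 13.9% were called there in Apoe-/- and 12.2% in DKO. Lyz2 lost its call without Apoe-/- untreated replicates 2 or 3 or oxLDL 60 replicates 1 or 3, and without DKO untreated replicate 3 or oxLDL 60 replicate 1, and in both genotypes without a filter on low values (limma adjusted p = 0.164 and 0.108). Mertk lost it without Apoe-/- untreated replicate 1 or oxLDL 60 replicate 2, and without DKO untreated replicate 1 or oxLDL 60 replicate 3. The part of this shift in the class II results was not tested. The 8 dendritic cell markers summed to 0.152 to 0.504 RPKM, with Ccr7 at 0 to 0.051 RPKM, and the 1 of them that passed the filter was not called. Of 4 B cell markers the 1 that passed the filter, Cd79b, was called lower at oxLDL 60 in DKO. Since RNA was taken from whole cultures, fewer cells of a type and less RNA per cell cannot be told apart.

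Per length, the class II genes were expressed over a wide range of levels. Over the 18 libraries Cd74 was the most abundant at a mean of 50.0 RPKM, followed by H2-DMb1 at 24.6, H2-Ab1 at 16.4, H2-Aa at 13.8, H2-DMa at 6.69 and H2-Eb1 at 4.06 RPKM. Ciita averaged 0.502 RPKM, with 38 to 365 whole reads in a library. Among the co-stimulatory genes Cd40 averaged 12.5, Cd86 8.16 and Cd80 0.652 RPKM. The range of Cd74, from 32.7 RPKM upwards, lay above that of H2-DMb1, and the ranges of Ciita and Cd80, up to 1.41 and 1.10 RPKM, lay below that of H2-Eb1, which began at 2.14 RPKM. All other neighbours in this order overlapped, for instance H2-Ab1 (7.31 to 35.6 RPKM) and H2-Aa (6.71 to 29.0 RPKM). C57BL6 mice are known to lack a working alpha chain for the product of H2-Eb1.

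**Figure D1:**
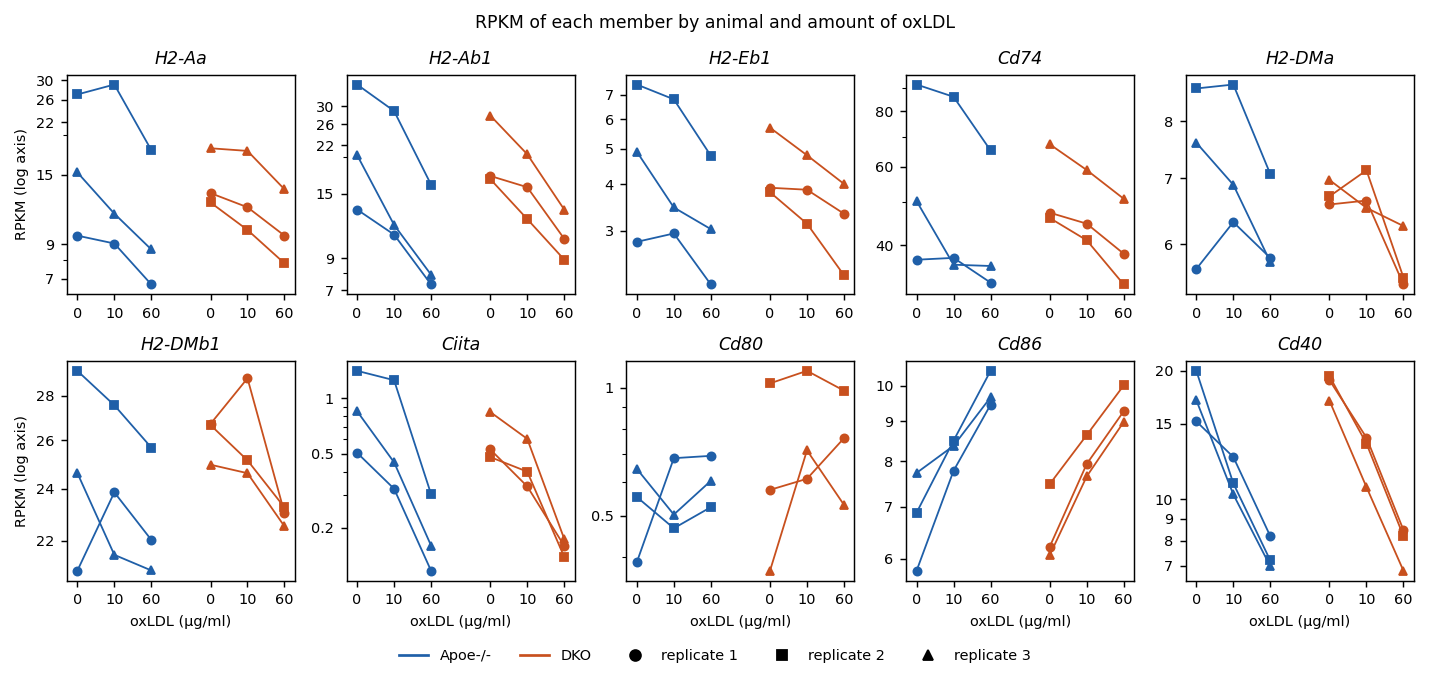
RPKM (log axes, each gene with its own range) of the 10 genes in all 18 libraries at 0, 10 and 60 µg/ml oxLDL, with blue for Apoe-/- and orange for DKO, a symbol for each replicate number and a line joining the libraries of an animal. Ciita and Cd40 descend and Cd86 climbs along every line from 0 to 60 µg/ml, and the chains and Cd74 lie apart by animal, with Apoe-/- replicate 2 and DKO replicate 3 on top.

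The comparison of oxLDL 60 with untreated cells asks which of these genes change with lipid loading. In Apoe-/- cells Ciita, H2-Ab1 and Cd40 were lower and Cd86 was higher, and in DKO cells Ciita and Cd40 were lower and Cd86 was higher. Calls required an adjusted p under 0.05 (limma, Benjamini-Hochberg over 12838 genes) together with a fold change of 1.4 or more. This held for 4 of the 10 genes in Apoe-/-, where 13.9% of all genes were called, and for 3 in DKO, where 12.2% were called. The median log2 fold change of the 10 was -0.47 in Apoe-/- and -0.44 in DKO, against 0.06 and -0.06 over all genes tested. At oxLDL 60 the treated and untreated libraries did not overlap for 3 of the 10 genes in Apoe-/- (Ciita, Cd86 and Cd40) and for 6 in DKO (also H2-Ab1, H2-DMa and H2-DMb1), where 40.7% and 42.6% of all genes did not overlap. At oxLDL 10 the call held for Cd40 alone, in each genotype, against 2.79% of all genes in Apoe-/- and 2.26% in DKO, and the median over the 10 was -0.16 and -0.15 against 0.07 and 0.02 over all genes.

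Ciita showed the largest fall of the 10 genes at oxLDL 60 on the log2(RPKM + 0.1) scale. In Apoe-/- cells, replicates 1 to 3 held 0.51, 1.41 and 0.85 RPKM untreated, 0.32, 1.25 and 0.45 RPKM at the low dose, and 0.12, 0.30 and 0.16 RPKM at the high dose. In DKO cells they held 0.53, 0.48 and 0.84 RPKM untreated, 0.33, 0.40 and 0.60 RPKM at the low dose, and 0.16, 0.14 and 0.17 RPKM at the high dose. All 6 libraries with oxLDL 60 were below all untreated libraries, while oxLDL 10 overlapped with untreated cells in both genotypes. On that scale, which understates the change of a gene this low, Ciita fell by 1.75 in Apoe-/- (limma adjusted p = 0.00203) and by 1.45 in DKO (adjusted p = 0.00948), with an SE of 0.38 in each. The ratio of the mean RPKM was 0.21 in Apoe-/- and 0.255 in DKO. With a pseudocount of 1 RPKM the DKO call was lost (log2 fold change -0.48, adjusted p = 0.0501), and Ciita was then not the gene that fell most.

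Between oxLDL 10 and oxLDL 60 Ciita fell by 1.27 in Apoe-/- (SE 0.38, limma adjusted p = 0.0361), where 6.46% of all genes were called and Ciita and Cd40 were the 2 called of the 10. In DKO, where 5.66% of all genes and Cd40 alone of the 10 were called, the log2 difference of Ciita was -1.06 (adjusted p = 0.0736). With the animal as a replicate block, which compares the libraries of an animal with each other, Ciita was called in DKO too (adjusted p = 1.72e-04). The DKO call was also gained with a pseudocount of 0.01 RPKM (adjusted p = 0.0457), with only the groups compared (0.0156), with a term for the Xist-positive libraries (0.00241) and without them (0.0210). Without the block the Apoe-/- call was lost when oxLDL 10 replicate 2 (log2 fold change -0.77, adjusted p = 0.165), oxLDL 10 replicate 3 (-1.42, 0.0507), oxLDL 60 replicate 1 (-1.07, 0.137) or oxLDL 60 replicate 3 (-1.20, 0.105) was left out. It was lost as well with a pseudocount of 1 RPKM (-0.45, 0.0986), without a filter on low values (-1.27, 0.0808) and with only the groups compared (-1.27, 0.114).

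H2-Ab1, the beta chain of the I-A molecule, followed Ciita with a smaller change. In Apoe-/- the libraries held 13.2, 35.6 and 20.4 RPKM untreated, 10.9, 28.9 and 11.7 RPKM at the low dose, and 7.31, 16.1 and 7.90 RPKM at the high dose. In DKO the libraries held 17.3, 16.8 and 27.8 RPKM untreated, 15.8, 12.3 and 20.5 RPKM at the low dose, and 10.5, 8.90 and 13.2 RPKM at the high dose. The Apoe-/- groups overlapped, with replicate 2 the highest at each dose, whereas in DKO all libraries with oxLDL 60 were below all untreated ones. The log2 fold change of H2-Ab1 at oxLDL 60 was -1.11 in Apoe-/- (limma adjusted p = 0.0409, SE 0.39) and -0.90 in DKO (adjusted p = 0.108, SE 0.39). Within each of the 6 animals H2-Ab1 was lower at oxLDL 60 than untreated, by 0.72 to 1.37 on the log2 RPKM scale. With the replicate block the adjusted p was 8.27e-08 in Apoe-/- and 1.26e-06 in DKO, so that DKO was called as well. DKO was also called when the model held just the 2 groups at issue (adjusted p = 0.0206), with a term for the Xist-positive libraries (6.16e-04) and without them (0.00215). The unblocked Apoe-/- call was lost without untreated replicate 2 (log2 fold change -0.74, adjusted p = 0.194), untreated replicate 3 (-1.14, 0.0728), oxLDL 60 replicate 1 (-0.91, 0.155) or oxLDL 60 replicate 3 (-0.96, 0.128), and without a filter on low values (adjusted p = 0.0887).

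H2-Aa, the alpha chain of I-A, was lower at the high dose in every animal but was not called by the model of group means. In Apoe-/- the libraries held 9.59, 27.0 and 15.3 RPKM untreated, 9.05, 29.0 and 11.3 RPKM at the low dose, and 6.71, 18.0 and 8.67 RPKM at the high dose. In DKO the libraries held 13.1, 12.2 and 18.2 RPKM untreated, 11.8, 10.0 and 17.9 RPKM at the low dose, and 9.59, 7.83 and 13.5 RPKM at the high dose. The groups overlapped in both genotypes, yet each animal was lower at oxLDL 60 than untreated, by 0.43 to 0.82 on the log2 RPKM scale. The log2 fold change was -0.63 in Apoe-/- (SE 0.43, limma adjusted p = 0.297) and -0.50 in DKO (SE 0.43, adjusted p = 0.443). With the replicate block the SE was 0.082 and H2-Aa was called lower in Apoe-/- (adjusted p = 1.05e-05) and in DKO (adjusted p = 1.31e-04). In Apoe-/- it was also called by limma with a term for the Xist-positive libraries (adjusted p = 0.0171) and without them (adjusted p = 0.0177).

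H2-Eb1 and Cd74 were highest in the same animal of each genotype at every dose. H2-Eb1, the beta chain of I-E, averaged 5.05 ± 2.33 RPKM (SD, n = 3) untreated, 4.40 ± 2.09 with oxLDL 10 and 3.32 ± 1.34 with oxLDL 60 in Apoe-/-, and 4.47 ± 1.06, 3.93 ± 0.83 and 3.21 ± 0.88 RPKM in DKO. Its log2 fold change at oxLDL 60 was -0.56 in Apoe-/- (limma adjusted p = 0.263), which was called with the replicate block (adjusted p = 2.86e-04) or a term for the Xist-positive libraries (0.0312), and -0.48 in DKO (adjusted p = 0.364, and 0.00120 with the block, where the fold change was under 1.4). Cd74, the invariant chain, averaged 59.7 ± 28.5, 53.3 ± 28.5 and 44.7 ± 17.9 RPKM in Apoe-/- and 53.6 ± 12.0, 48.3 ± 9.5 and 40.6 ± 9.3 RPKM in DKO. Its log2 fold change at oxLDL 60 was -0.38 in Apoe-/- (SE 0.35, adjusted p = 0.450) and -0.40 in DKO (SE 0.35, adjusted p = 0.451). Within all 6 animals both genes were lower at oxLDL 60 than untreated, and with the block Cd74 had adjusted p = 0.00102 in Apoe-/- and 7.53e-04 in DKO at fold changes under 1.4.

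Counted with the replicate block, 6 of the 10 genes were called at oxLDL 60 in Apoe-/-, against 15.3% of all genes, and 5 in DKO, against 13.5%. For oxLDL 60 against oxLDL 10 the block gave 4 genes in Apoe-/-, where H2-Aa (log2 fold change -0.50, adjusted p = 2.77e-04) and H2-Ab1 (-0.65, 8.15e-05) joined Ciita and Cd40, against 7.91% of all genes. H2-Ab1 was called there also with a term for the Xist-positive libraries (adjusted p = 0.0127) and without them (0.0383). It gave 3 genes in DKO, where Ciita and H2-Ab1 (-0.56, 4.04e-04) joined Cd40, against 7% of all genes, and H2-Ab1 was called there with a term for the Xist-positive libraries too (adjusted p = 0.0279). At oxLDL 10 against untreated cells the count with the block was 1 in each genotype, against 4.11% of all genes in Apoe-/- and 3.5% in DKO, and the log2 fold change of H2-Ab1 there was -0.46 in Apoe-/- (adjusted p = 0.00380 with the block) and -0.34 in DKO (0.0325), short of the fold limit.

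The H2-DM genes, whose product edits the peptides of class II molecules, had the narrowest ranges of the class II genes. H2-DMa ranged from 5.46 to 8.71 RPKM over the 18 libraries and H2-DMb1 from 20.9 to 29.2 RPKM. At oxLDL 60 the log2 fold change of H2-DMa was -0.21 in Apoe-/- and -0.23 in DKO (SE 0.13 each), and that of H2-DMb1 was -0.11 and -0.19 (SE 0.11 each). Their 95% intervals in Apoe-/- were -0.50 to 0.07 for H2-DMa and -0.35 to 0.12 for H2-DMb1, and neither gene was called with the block either. H2-DMb1 has a near-identical neighbour, H2-DMb2, at 0.146 to 0.407 RPKM, and how reads shared by both were counted is not given in the sources used here.

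**Figure D2:**
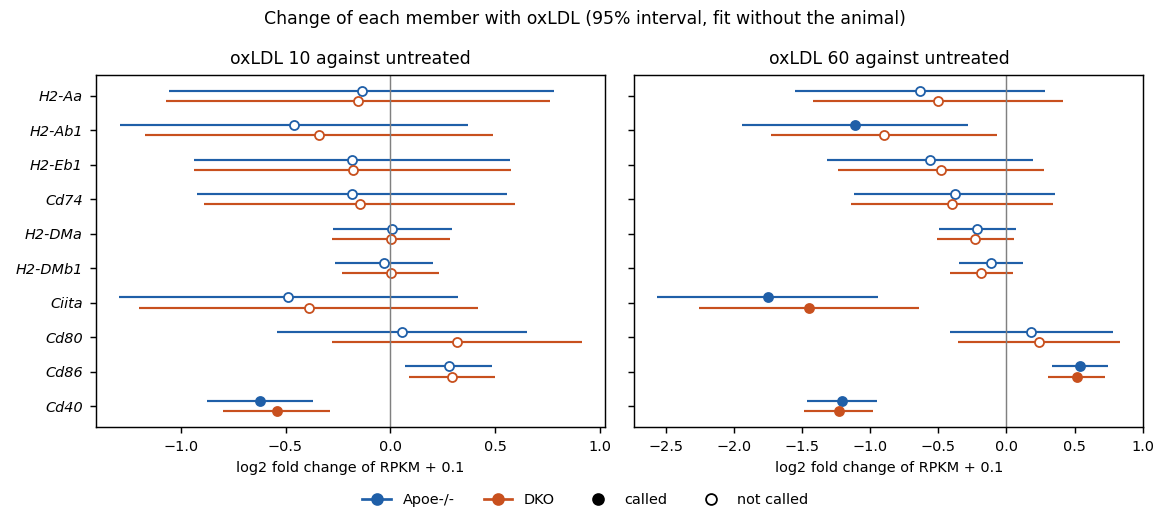
Log2 fold change of RPKM + 0.1 for the 10 genes at oxLDL 10 and oxLDL 60 against untreated cells, fitted without the animal, with blue for Apoe-/-, orange for DKO, bars for the 95% interval and filled points for called genes. Cd40 is called in all 4 contrasts, with values from -0.54 to -1.23, and the bars of the chains, Cd74 and Ciita are the widest.

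Of the co-stimulatory genes, Cd40 and Cd86 went opposite ways. Cd40 fell at each step of oxLDL. In Apoe-/- the libraries held 15.2, 20.0 and 17.1 RPKM untreated, 12.6, 10.9 and 10.3 RPKM at the low dose, and 8.20, 7.20 and 6.97 RPKM at the high dose. In DKO the libraries held 19.0, 19.4 and 17.0 RPKM untreated, 13.9, 13.5 and 10.7 RPKM at the low dose, and 8.48, 8.21 and 6.81 RPKM at the high dose. In neither genotype did a library of a higher dose reach the lowest library of a lower dose. The fall at oxLDL 60 was by 1.21 in Apoe-/- (limma adjusted p = 7.86e-07) and by 1.23 in DKO (adjusted p = 7.08e-07) on the log2 scale, with an SE of 0.12. At oxLDL 10 it fell by 0.62 in Apoe-/- (adjusted p = 0.00462) and by 0.54 in DKO (adjusted p = 0.0146), and from oxLDL 10 to oxLDL 60 it fell by 0.58 (adjusted p = 0.00304) and by 0.69 (adjusted p = 8.29e-04). The DKO call at oxLDL 10 was lost without untreated replicate 1 (adjusted p = 0.0572), untreated replicate 2 (0.0587) or oxLDL 10 replicate 3 (0.0602), and without the Xist-positive libraries (log2 fold change -0.48, under the fold limit).

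Cd86, the ligand of CD28 and CTLA-4 that resting macrophages carry, rose. In Apoe-/- the libraries held 5.79, 6.88 and 7.73 RPKM untreated, 7.78, 8.50 and 8.38 RPKM at the low dose, and 9.45, 10.5 and 9.66 RPKM at the high dose. In DKO the libraries held 6.22, 7.48 and 6.07 RPKM untreated, 7.94, 8.65 and 7.65 RPKM at the low dose, and 9.28, 10.0 and 8.99 RPKM at the high dose. No treated library overlapped with the untreated ones of its genotype. At oxLDL 60 the log2 fold change was 0.54 in Apoe-/- (SE 0.10, limma adjusted p = 4.54e-04) and 0.51 in DKO (SE 0.10, adjusted p = 7.59e-04). At oxLDL 10 it was 0.28 (adjusted p = 0.102) and 0.29 (adjusted p = 0.129). These changes lie close to the fold limit of 1.4: the call at oxLDL 60 was lost in both genotypes with a pseudocount of 1 RPKM, in Apoe-/- after rescaling by the median ratio or without untreated replicate 1, and in DKO without untreated replicates 1 or 3 or oxLDL 60 replicate 2, while the adjusted p was at most 0.0116 under every alternative tried.

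Cd80, the other ligand of CD28, was present at 49 to 160 reads per library and was not called in any comparison. In Apoe-/- the libraries held 0.39, 0.55 and 0.64 RPKM untreated, 0.68, 0.47 and 0.50 RPKM at the low dose, and 0.69, 0.52 and 0.60 RPKM at the high dose. In DKO the libraries held 0.58, 1.02 and 0.37 RPKM untreated, 0.61, 1.10 and 0.71 RPKM at the low dose, and 0.76, 0.98 and 0.53 RPKM at the high dose. All groups overlapped, and DKO replicate 2 was the highest library at each dose. Per length Cd86 exceeded Cd80 by a ratio of 7.30 to 19.9 in every library. At oxLDL 60 the 95% interval of the log2 fold change of Cd80 was -0.41 to 0.78 in Apoe-/- and -0.36 to 0.84 in DKO.

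The genotypes were compared untreated and at each dose, which asks whether the loss of Treml4 changes these genes. None of the 10 genes was called between DKO and Apoe-/-, where 0.21% of all genes were called untreated, 0.0857% with oxLDL 10 and 0.125% with oxLDL 60, and by limma none reached an unadjusted p under 0.05 in these 3 comparisons. With the replicate block, fitted as a correlation between the libraries of an animal, the count was 0 as well, against 0.327%, 0.0857% and 0.109% of all genes. The lowest log2 difference was that of Ciita untreated, at -0.45 (SE 0.38, limma adjusted p = 0.558), and the highest that of Cd80 with oxLDL 10, at 0.45 (SE 0.28, adjusted p = 0.599). The precision differed by gene. For untreated cells the 95% interval of the log2 difference ran from -0.25 to 0.17 for Cd86 and from -0.16 to 0.35 for Cd40, but from -1.06 to 0.77 for H2-Aa and from -0.81 to 0.67 for Cd74.

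The responses to oxLDL were compared between genotypes by the interaction term. None of the 10 genes was called for oxLDL 10, where 0% of all genes were called, or for oxLDL 60, where 0.0156% were called, and none reached an unadjusted p under 0.05. The interaction values ranged from -0.07 for H2-DMb1 to 0.31 for Ciita (SE 0.54), both at oxLDL 60, with a median over all genes of -0.11 there. For Cd40 at oxLDL 60 the 95% interval of the interaction was -0.38 to 0.34 and for Cd86 it was -0.32 to 0.27. With the block the count was 0 for both doses, against 0.00779% of all genes for oxLDL 10 and 0.0389% for oxLDL 60.

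Animals differed widely in the class II chains, and the chains ranked the animals alike. The Xist-positive library was the highest of its group in 6 of 6 groups for H2-Aa, H2-Ab1, H2-Eb1, Cd74 and Ciita, in 5 for H2-DMa, in 3 for H2-DMb1, in 2 for Cd86, in 1 for Cd40 and in 0 for Cd80. For H2-Aa the ratio of that library to the mean of the other 2 was 2.17 untreated, 2.86 with oxLDL 10 and 2.33 with oxLDL 60 in Apoe-/-, and 1.44, 1.64 and 1.55 in DKO. For Ciita the same ratios were 2.07, 3.23 and 2.19 in Apoe-/- and 1.67, 1.64 and 1.17 in DKO. This pattern was seen in the data first and rests on 2 Xist-positive and 4 other animals, so it is given as a description without a test.

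Summed stromal markers and summed neutrophil and progenitor markers were lower in the same animals, while macrophage and most B cell sums were higher. The 5 stromal markers summed to 0.618 to 0.954 RPKM in Apoe-/- replicate 2 and to 7.51 to 15.1 RPKM in the other Apoe-/- libraries, and to 0.929 to 1.43 RPKM in DKO replicate 3 against 3.71 to 5.65 RPKM in the other DKO libraries. The 6 neutrophil and progenitor markers summed to 26.4 to 32.3 RPKM in Apoe-/- replicate 2 against 34.9 to 43.0 RPKM, and to 29.5 to 33.4 RPKM in DKO replicate 3 against 40.9 to 73.5 RPKM. S100a8 and S100a9, at means of 16.0 and 22.1 RPKM over the 18 libraries, carried most of that sum. Mpo, Elane, Ltf and Ly6g averaged at most 1.70 RPKM, and Mpo was not lowest in these animals in every group. Of the stromal and of the neutrophil and progenitor list 5 genes each passed the filter, and none was called at oxLDL 60. The 8 macrophage markers, mostly Lyz2, summed highest in these animals in every group. At oxLDL 60 they summed to 8382 RPKM against 6837 and 6453 in Apoe-/-, and to 7077 against 5491 and 5685 in DKO. The B cell sum, nearly all Cd79b, was also highest there except in untreated Apoe-/- cells (2.03 RPKM, against 2.13 in replicate 3). The part of these cells in the level of the class II genes was not tested. Without the Xist-positive libraries the log2 fold change of H2-Ab1 at oxLDL 60 was -1.10 in Apoe-/- and -0.81 in DKO, and both were called.

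As a description over the 18 libraries, which share 6 animals and 3 treatments, the chains followed each other closely. Pearson's r of the log2 levels was 0.938 for H2-Aa with H2-Ab1, 0.979 with H2-Eb1, 0.977 with Cd74 and 0.827 with Ciita. Taken as deviations from the group means, which removes the treatment, the same values were 0.986, 0.976, 0.983 and 0.953. Cd40 and Cd86 had an r of -0.834 over all libraries and of 0.322 as deviations, so that their opposition lay between treatments and not between animals.

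The ratio of a chain to Ciita varied less between animals than the chain itself and differed between treatments. H2-Aa over Ciita, in RPKM, was 18.7 ± 0.7 (SD, n = 3) untreated, 25.4 ± 2.4 with oxLDL 10 and 56.9 ± 2.5 with oxLDL 60 in Apoe-/-, where H2-Aa itself ran from 9.05 to 29.0 RPKM between animals at oxLDL 10. In DKO the ratio was 23.9 ± 2.0 untreated, 24.9 to 35.4 with oxLDL 10 and 64.7 ± 11.3 with oxLDL 60. The lowest ratio with oxLDL 60 was 54.2 in Apoe-/- and 56.4 in DKO, above the highest untreated ratios of 19.2 and 25.4, so that Ciita was lower by a larger factor than the chain in every animal. The ratio of H2-Ab1 to H2-Aa, whose products pair, went from 1.34 ± 0.03 untreated to 1.08 ± 0.11 and 0.967 ± 0.108 in Apoe-/- and from 1.41 ± 0.11 to 1.24 ± 0.10 and 1.07 ± 0.08 in DKO, without overlap between untreated cells and the high dose. H2-Eb1 over H2-Aa was 0.296 ± 0.023 untreated and 0.312 ± 0.042 with oxLDL 60 in Apoe-/-, and its groups overlapped. The ratios were chosen after the levels were seen and carry no test.

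**Figure D3:**
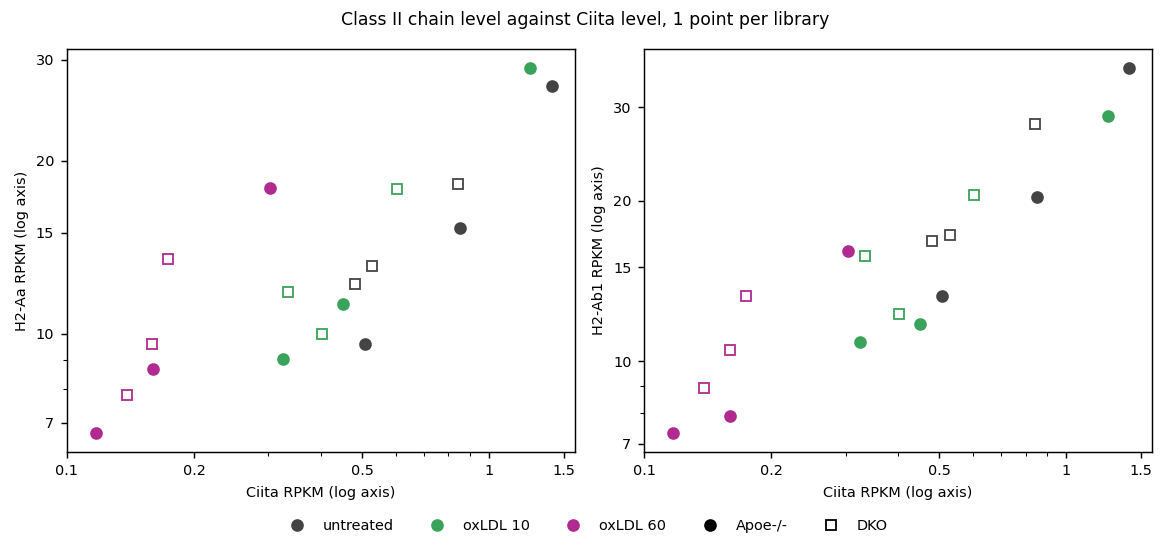
H2-Aa and H2-Ab1 against Ciita, both in RPKM on log axes, with a point for each of the 18 libraries, colours for untreated, oxLDL 10 and oxLDL 60, filled circles for Apoe-/- and open squares for DKO. Within a treatment the points climb together, and with oxLDL 60 they lie to the left, at Ciita levels of 0.12 to 0.30 RPKM, for chain levels that overlap with those of the other treatments.

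Genes linked to signalling upstream of Ciita were read as a list of 12, mostly of interferon-gamma and interferon signalling. The list also holds Socs1, a feedback inhibitor, the type I interferon receptor genes Ifnar1 and Ifnar2, and further transcription factor genes such as Spi1. Only RNA levels were read, and whether the fall of Ciita follows from changes in these genes was not tested. At oxLDL 60, 8 of the 12 were called lower and none higher in each genotype, against 13.9% of all genes in Apoe-/- and 12.2% in DKO. The list median was -0.57 in Apoe-/- and -0.62 in DKO, against 0.06 and -0.06 over all genes tested. Irf1, the transcription factor that binds the interferon-responsive promoter of Ciita, went from 24.8 ± 6.5 to 6.63 ± 1.13 RPKM (SD, n = 3) in Apoe-/-, a log2 fall by 1.87 (limma adjusted p = 4.11e-06, SE 0.22), and fell by 1.71 in DKO. Jak2, a kinase of the interferon-gamma receptor, fell by 1.16 in Apoe-/- and by 1.09 in DKO, and the receptor chain Ifngr2 fell by 0.54 and by 0.63. The other called genes were Ifngr1, Irf2, Socs1, Ifnar1 and Spi1. Of these, Irf2 (adjusted p = 0.0490 and 0.0418) lost its call in each genotype without a filter on low values or without the Xist-positive libraries, in Apoe-/- also without untreated replicates 2 or 3 or oxLDL 60 replicates 1 or 2, and in DKO without any untreated replicate or oxLDL 60 replicate 2. Irf2 lost it too with a pseudocount of 0.01 RPKM in Apoe-/- (adjusted p = 0.0502), and in DKO after rescaling by the median ratio (0.0674) or with only the groups compared (0.0953). Likewise Ifngr1 lost its Apoe-/- call without untreated replicates 2 or 3 or oxLDL 60 replicates 1 or 3 and its DKO call without untreated replicate 3 or oxLDL 60 replicate 2, and in Apoe-/- also without a filter (adjusted p = 0.0543). Socs1 was short of the fold limit in Apoe-/- with a pseudocount of 1 RPKM (log2 fold change -0.39). At oxLDL 10, 2 of the 12 were called lower in each genotype, Irf1 and Jak2 in Apoe-/- and Jak2 and Socs1 in DKO. Of all genes, 2.79% were called at that dose in Apoe-/- and 2.26% in DKO.

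The factors that sit on class II promoters changed less. Of 10 genes for the X and Y box factors and their co-activators, Ep300 alone was called, lower in Apoe-/- at oxLDL 60, and the list medians were -0.10 in Apoe-/- and -0.21 in DKO. Of all genes, 13.9% were called at that dose in Apoe-/- and 12.2% in DKO. Ep300, a histone acetyltransferase, had a log2 fold change of -0.60 in Apoe-/- (limma adjusted p = 0.00520). In DKO it was -0.41 (adjusted p = 0.0503), and without untreated replicate 3 the Apoe-/- value was -0.47, short of the fold limit. Rfx5, the DNA-binding subunit of the X box complex, went from 3.65 ± 0.60 to 2.62 ± 0.25 RPKM in Apoe-/- and from 3.76 ± 0.39 to 2.73 ± 0.16 RPKM in DKO, with log2 fold changes of -0.46 and -0.44 that were short of the fold limit and passed it in Apoe-/- after rescaling by the median ratio or without untreated replicate 1 or oxLDL 60 replicate 2 and in DKO without untreated replicate 2 or oxLDL 60 replicate 3. Of 9 genes for the loading and turnover of class II, Ctsd, a lysosomal protease, was called higher in Apoe-/- (0.51, adjusted p = 0.00727), and Cd83, which keeps class II at the surface, was called lower in DKO (-0.79, adjusted p = 0.0298), with list medians of 0.28 and 0.10. With the replicate block Cd83 was called lower in Apoe-/- too (-0.55, adjusted p = 5.77e-05), as it was with only the groups compared (0.00179) and without the Xist-positive libraries (0.00821). Ctsd was short of the fold limit without untreated replicate 1 or oxLDL 60 replicate 2 and after rescaling by the median ratio (0.45). The DKO call of Cd83 was lost without untreated replicates 1 or 2 or oxLDL 60 replicate 3, without a filter on low values (adjusted p = 0.0662) and with only the groups compared (0.0678). Of 4 further class II chain genes, H2-DMb2, H2-Oa and H2-Ob passed the filter, and none was called.

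Among 14 genes listed for CD40 signalling, 6 were called lower in Apoe-/- and 5 in DKO at oxLDL 60, and none higher. Of all genes, 13.9% and 12.2% were called there. The list medians were -0.39 and -0.34, against 0.06 and -0.06 over all genes tested. Whether these falls follow from that of Cd40 was not tested. Traf1, an adaptor of the CD40 complex, went from 14.2 ± 2.7 to 4.72 ± 0.17 RPKM in Apoe-/- and from 15.6 ± 1.9 to 5.43 ± 0.28 RPKM in DKO, with a log2 fall by 1.55 in Apoe-/- (limma adjusted p = 4.29e-08). Birc3 fell by 1.14 and 1.07, Nfkb1 by 0.91 and 0.87, Nfkb2 by 0.66 and 0.69, and Relb by 0.54 and 0.60. Without the Xist-positive libraries Relb was -0.48 in each genotype, short of the fold limit, as it was in Apoe-/- without untreated replicate 2 alone (-0.45). Tnfaip3, an inhibitor of NF-kB, was called in Apoe-/- alone (-0.51, adjusted p = 0.0122), and that call was lost without untreated replicates 2 or 3 or oxLDL 60 replicate 2, without the Xist-positive libraries (-0.39) and with a pseudocount of 1 RPKM (-0.48). Its log2 fold change in DKO was -0.32 (adjusted p = 0.116), and no gene of these lists was called for the interaction.

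Other co-stimulatory and co-inhibitory genes, mostly of ligands that macrophages show to T cells, went both ways. Of 14 tested, 4 were called higher, among them Havcr2, which encodes a receptor, and 2 lower at oxLDL 60, in each genotype. Of all genes, 13.9% were called there in Apoe-/- and 12.2% in DKO. The list medians were 0.12 and 0.13, against 0.06 and -0.06 over all genes tested. Icosl, the ligand of ICOS, went from 8.97 ± 1.08 to 4.09 ± 0.27 RPKM in Apoe-/-, a log2 fall by 1.11 (limma adjusted p = 1.46e-06), and fell by 1.00 in DKO. Icam1, the adhesion ligand of LFA-1, fell by 1.07 and 0.98. Tnfsf14 rose from 2.08 ± 0.16 to 6.28 ± 0.92 RPKM in Apoe-/- (1.54 on the log2 scale, adjusted p = 4.37e-05) and had a log2 fold change of 1.23 in DKO, while Tnfsf4, the OX40 ligand, had 1.05 and 0.74, the inhibitory receptor gene Havcr2 1.10 and 0.89, and Slamf7 0.52 and 0.75. The Tnfsf4 call in DKO was lost without the Xist-positive libraries and when any library but untreated replicate 2 was left out, and also with a pseudocount of 1 RPKM (0.35) or without a filter on low values (adjusted p = 0.0716). The Slamf7 call in Apoe-/- was lost without untreated replicate 1 or oxLDL 60 replicates 2 or 3, without a filter (adjusted p = 0.0809) and after rescaling by the median ratio (0.46, under the fold limit). Cd274, which encodes PD-L1, had log2 fold changes of 0.03 and 0.33 and was not called.

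Cd28, whose product is the partner of CD80 and CD86 on T cells, was listed among the T cell markers and rose in these cultures. It went from 7.37 ± 1.18 RPKM untreated to 11.6 ± 1.2 with oxLDL 10 and 21.2 ± 2.2 with oxLDL 60 in Apoe-/-, and from 5.74 ± 0.50 to 10.4 ± 1.6 and 17.9 ± 1.2 RPKM in DKO. The log2 fold changes at oxLDL 60 were 1.52 (limma adjusted p = 8.44e-08) and 1.63 (adjusted p = 4.29e-08), and no treated library overlapped with untreated ones. Of the other T cell markers, Cd3e stood at 0 to 0.017 RPKM over the 18 libraries, Cd3d at 0 to 0.069 RPKM and Cd3g at 0 to 0.136 RPKM. Lck stood at 0.0995 to 0.354 RPKM. Of the 5 markers listed, 2 passed the filter, Cd28 and Lck, and Lck was not called. The part of T cells in the level of Cd28 was not tested.

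**Figure D4:**
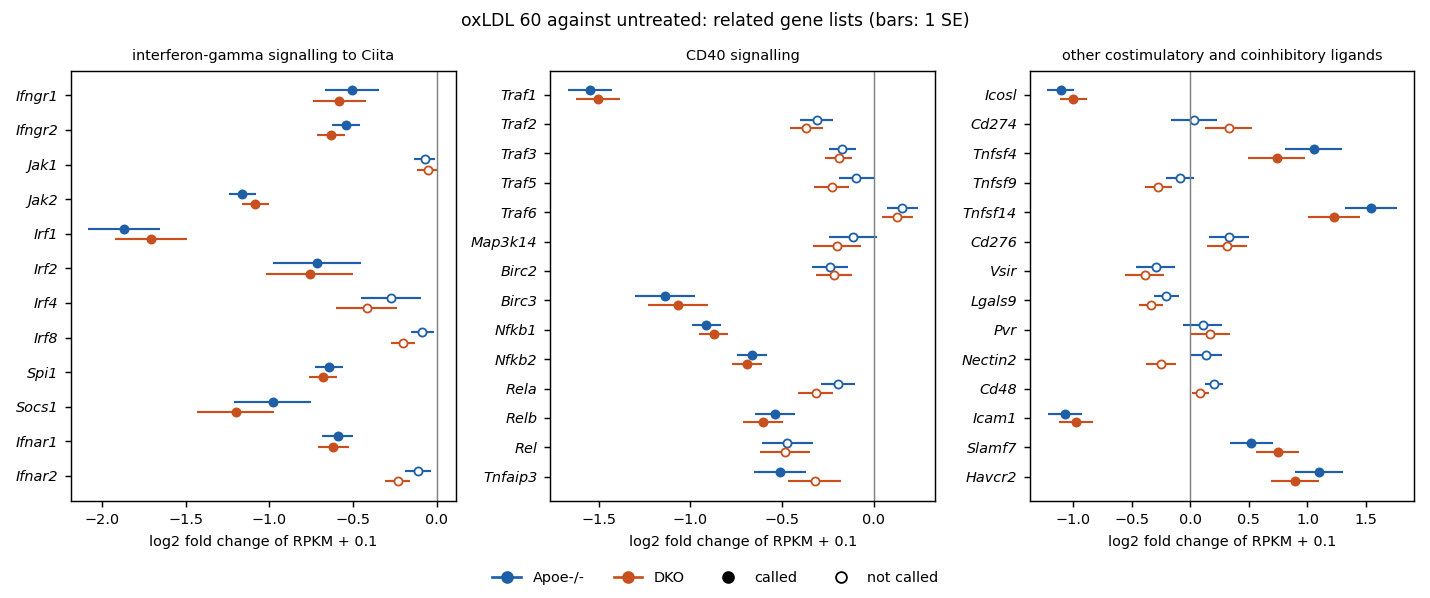
Log2 fold change of RPKM + 0.1 at oxLDL 60 against untreated cells for the genes tested in 3 lists, interferon-gamma signalling to Ciita, CD40 signalling, and other co-stimulatory and co-inhibitory ligands, with blue for Apoe-/-, orange for DKO, bars for 1 SE and filled points for called genes. The first list holds 8 filled points on the lower side in each genotype, and the third holds 4 higher and 2 lower.

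Genes whose levels most resembled those of the members over the 18 libraries were listed among 10094 genes with a mean of at least 1 RPKM. For the mean of H2-Aa, H2-Ab1, H2-Eb1 and Cd74 they were Csf2rb (Pearson r 0.963), a row whose symbol had been turned into a date (0.945), Unc93b1 (0.917), H2-M3 (0.917) and Dcxr (0.909). For Ciita they were Cd302 (0.975), Calhm6 (0.965) and Gm21188 (0.959), and for Cd40 they were Tnf (0.985), Hcar2 (0.978) and Rapgef2 (0.976). For Cd86 they were Soat1 (0.968), Tmem87b (0.965) and Gla (0.965), whereas for Cd80 the closest were Lonp2 (0.840), Actr2 (0.828) and Fuom (0.826).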

How the data were processed

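Total RNA of 18 BMDM libraries (6 groups, 3 replicates each) was sequenced. The authors aligned the reads with STAR to mm10, per the labels, and deposited 1 table of RPKM values for 18668 symbols, of which 24 had been turned into dates. How multi-mapped reads were treated is not given in the sources used here. RPKM are relative to each library, so abundant RNAs lower all other values.

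Groups came from the sample titles. The members, the lists and the alternatives were chosen with earlier results of these data known. Genes named are the 10 members, Treml4 and Xist as checks, called genes of the lists (otherwise the 4 of smallest adjusted p in a list), and the genes of highest Pearson r with members. Cd274 and the markers given at 0 or near it were named after their values were seen. A gene of the interferon list and a B cell marker are not reported here and were left out of the counts of their lists.

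Genes reaching 0.1 RPKM in 3 or more libraries (12838) were analysed as log2(RPKM + 0.1). A linear model with 6 group means was fitted with limma 3.58.1 in R 4.3.3 (eBayes with trend), the Benjamini-Hochberg adjustment was made within each comparison, and calls needed an adjusted p under 0.05 and a fold of at least 1.4, after the study's methods. The script was tested on simulated data. Python 3.11.15, numpy 2.4.6, pandas 2.3.3 and matplotlib 3.10.9 were used otherwise.

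Depth was read from the steps that 1 read makes in low values: 80.7% of 42629 low values lay within 0.05 of a whole step, and 571 genes with a single transcript gave 39.7 to 54.2 M reads. Limits from reads cover counting error only. As RPKM are no counts, no count test was run. Replicate numbers were checked as pairs by correlating deviations from group means. Within a genotype all 18 same-number pairs were positive (0.183 to 0.695). Other numbers ran from -0.613 to 0.292 with a median of -0.347, so that the ranges overlapped. Between genotypes the same number had a median of -0.168. The numbers were therefore taken as animals within a genotype, entered as a fixed block within genotypes and as a correlation (statmod 1.5.0) between them. Whether the animals' marrow was handled together is not stated, so p-values measure the spread between these cultures. By the study's methods mice were age- and sex-matched. Of the 6 animals, Apoe-/- replicate 2 and DKO replicate 3 were Xist-positive. The genotypes were alike in this, while the animals within a genotype were not. The part of the donors' sex in the differences between animals was not tested.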

Additional observations from a re-analysis of the deposited data

How the results depend on the processing

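With 3 libraries a group, the spread between animals limited the class II chains, Cd74 and Ciita more than depth did, and Cd80 and Ciita rest on few reads. RPKM carry no counts, so no count test bears on these calls. A filter of 1 RPKM removes Ciita and Cd80, which then have no value. Of 1904 values recomputed for single genes, 1747 kept direction and call, 89 lost and 31 gained a call, and 37 changed sign. These were values within a genotype, together with those between genotypes for Ciita untreated and Cd80 at oxLDL 10. All values of the members between genotypes and for the interaction are counted at the end of this section. The number of the 10 genes called for oxLDL 60 against oxLDL 10 in Apoe-/-, which was 2, became 1 with a pseudocount of 1 RPKM, without a filter, with a filter of 1 RPKM or with only the groups compared, 4 with the replicate block, 3 with a term for the Xist-positive libraries or without them, and 1 to 2 on leaving out a library. In DKO the number for that comparison, which was 1, became 2 with a pseudocount of 0.01 RPKM, with only the groups compared or without the Xist-positive libraries, and 3 with the replicate block or with a term for them. For oxLDL 60 in DKO it went from 3 to 1 with a pseudocount of 1 RPKM to 5 with the replicate block, and to 4 with only the groups compared, with a term for the Xist-positive libraries or without them, and for oxLDL 10 in DKO from 1 to 0 without the Xist-positive libraries and to 0 to 1 on leaving out a library. The cause of these shifts was not tested. The block changed no other call of a member beyond those given in the report.

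Sign changes were all in values that were not called. After rescaling by the median ratio, H2-DMa at oxLDL 10 became -0.053 in Apoe-/- and -0.0165 in DKO, H2-DMb1 at oxLDL 10 in DKO -0.018, and Cd274 at oxLDL 60 in Apoe-/- -0.033. Without the Xist-positive libraries Cd80 for oxLDL 60 against oxLDL 10 in DKO became 0.068. On leaving out a library, log2 fold changes at oxLDL 10 in Apoe-/- ran from -0.59 to 0.18 for Cd74, -0.11 to 0.19 for Cd80, -0.64 to 0.25 for H2-Aa, -0.16 to 0.14 for H2-DMa, -0.15 to 0.090 for H2-DMb1 and -0.54 to 0.15 for H2-Eb1. In DKO at oxLDL 10 they ran from -0.30 to 0.030 for Cd74, -0.39 to 0.023 for H2-Aa, -0.035 to 0.027 for H2-DMa, -0.069 to 0.044 for H2-DMb1 and -0.33 to 0.0042 for H2-Eb1. At oxLDL 60 they ran in Apoe-/- from -0.18 to 0.17 for Cd274 and -0.23 to 0.0061 for H2-DMb1, and in DKO from -0.056 to 0.57 for Cd80. For oxLDL 60 against oxLDL 10 they ran in Apoe-/- from -0.50 to 0.21 for Cd74, -0.91 to 0.0067 for H2-Aa and -0.17 to 0.010 for H2-DMb1, and in DKO from -0.26 to 0.14 for Cd80. Between genotypes, 23 of 30 values and, for the interaction, 20 of 20 changed sign under some alternative, and none of 474 and 436 recomputed values was called.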
